A study of Mus musculus with 2 samples.

Results

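Haptoglobin (Hp) and 9 further acute-phase genes, Hpx, Saa1, Saa2, Saa3, Lcn2, Serpina3g, Serpina3n, Orm1, and Cp, were followed in 2 RNA sequencing libraries of cultured cells from mouse gonadal fat, which the labels call primary adipocytes. All 10 were found by symbol among the 24091 genes of the table. The set was chosen from these same libraries, because the low values of Hp and Serpina3g after irradiation were already known, so the differences of the members are given as a description and no test was made. One library (the sham library) came from sham-irradiated C57BL/6 mice and one from C57BL/6 mice whose pelvis was irradiated, which the labels give as 7.5 Gy and 5 days, and both sample titles also name PBS without saying what received it. The gonadal fat, taken 2 months after radiation, was digested with collagenase, and the floating cells were cultured for 3 days before polyadenylated RNA was sequenced. The age, the sex, and the number of mice behind each library are not stated. With 1 library per condition there was no replicate error, and a difference between the conditions cannot be told apart from any other difference between the cultures.

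The acute-phase response is the change in secreted plasma proteins that follows infection or tissue injury. It is driven mostly by interleukins of the IL-1 and IL-6 families acting through NF-kB, STAT3, and the C/EBP transcription factors. The liver is its main site, but adipose tissue also makes several of these proteins. Haptoglobin binds free haemoglobin and is produced by white adipocytes, hemopexin (Hpx) binds free haem, ceruloplasmin (Cp) carries copper and oxidises iron, and lipocalin 2 (Lcn2) binds the iron carriers of bacteria. The serum amyloid A proteins (Saa1, Saa2, and Saa3) are carried on lipoproteins, and Saa3 is the one made mainly outside the liver. Serpina3g and Serpina3n are inhibitors of serine proteases, and orosomucoid (Orm1) is a plasma glycoprotein that binds small molecules.

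The libraries held about 30600000 fragments (sham-irradiated) and 34900000 fragments (irradiated), of which 86.8% and 86.9% lay on listed genes. These totals were recovered from the deposited values, which are log2 of FPKM (fragments per kilobase of gene, scaled to library size) plus 0.1. Genes that reached an FPKM of 1 in either library are called kept and numbered 11253, and their median difference, irradiated minus sham-irradiated, was 0.02 on the log2 scale. Despite the label of primary adipocytes, 9 of 15 mature adipocyte markers did not reach an FPKM of 1 in either library, with Adipoq (adiponectin) at 0.133 and 0.232. The other 6 did, among them Lpl at 68.0 and 66.6 and Fabp4, named after its value was seen, at 96.9 in both. All 12 fibroblast and progenitor markers reached 1. In such bulk RNA, fewer cells of a type and less RNA per cell cannot be told apart.

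The differences of Saa1 and Saa2 had opposite signs, but on 15 and 6 and on 0 and 4 fragments, and the interval of Saa2 includes 0. Both genes are shown first, because they are close copies of each other. Their coding sequences of 369 bases were 95.1% identical in the GENCODE annotation of GRCm38, while that of Saa3 was 73.2% identical to Saa1 and 71.5% to Saa2. The stretch from coding base 70 to 189 is the 120-base stretch in which Saa1 and Saa2 differ most, at 12 bases, and capitals mark those positions in all 3 genes.
Saa1: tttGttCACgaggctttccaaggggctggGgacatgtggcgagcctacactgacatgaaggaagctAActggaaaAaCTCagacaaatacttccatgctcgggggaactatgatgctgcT
Saa2: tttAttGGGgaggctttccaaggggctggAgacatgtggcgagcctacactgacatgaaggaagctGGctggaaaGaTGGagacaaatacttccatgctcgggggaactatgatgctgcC
Saa3: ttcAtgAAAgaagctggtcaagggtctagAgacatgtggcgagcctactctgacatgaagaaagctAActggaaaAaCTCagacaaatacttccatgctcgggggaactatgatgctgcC
Of the words of 50 bases in the Saa1 transcript, 13.2% also occurred in Saa2, whereas 1.78% of those in the Saa3 transcript occurred in any other gene. Fragments of Saa1 and Saa2 can therefore be hard to assign, while those of Saa3 rarely are. None of the 50-base words of Hp, Hpx, Lcn2, or Cp occurred in another gene. The share was 16.02% for Serpina3g, 6.90% for Serpina3n, and 20.4% for Orm1, whose words were shared with Orm2.

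Promoters are shown for 4 members, Saa3 and Serpina3g, which were lower in the irradiated library, and Lcn2 and Serpina3n, which differed little. They are RefSeq sequences of GRCm38.p6 that run from 250 bases before to 50 bases after the transcription start, in the direction of the gene. Capitals mark matches on either strand to the letters TTGCNNAA (C/EBP), TTCNNNGAA (STAT3), or GGNNTTTCC (NF-kB), and no match of one motif overlapped a match of another.
Saa3, chr7:46715627-46715926, minus strand: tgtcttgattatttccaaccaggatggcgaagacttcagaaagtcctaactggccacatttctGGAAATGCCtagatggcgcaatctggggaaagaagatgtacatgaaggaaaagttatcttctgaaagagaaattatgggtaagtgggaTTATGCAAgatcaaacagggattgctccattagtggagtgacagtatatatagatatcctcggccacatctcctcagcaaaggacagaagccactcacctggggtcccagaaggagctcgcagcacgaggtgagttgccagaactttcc
Serpina3g, chr12:104235897-104236196, plus strand: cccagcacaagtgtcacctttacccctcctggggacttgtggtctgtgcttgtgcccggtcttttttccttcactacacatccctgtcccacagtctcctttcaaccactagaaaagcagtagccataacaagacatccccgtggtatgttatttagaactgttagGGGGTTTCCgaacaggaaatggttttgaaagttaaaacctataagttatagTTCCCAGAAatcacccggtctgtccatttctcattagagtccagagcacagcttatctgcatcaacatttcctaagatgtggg
Lcn2, chr2:32387690-32387989, minus strand: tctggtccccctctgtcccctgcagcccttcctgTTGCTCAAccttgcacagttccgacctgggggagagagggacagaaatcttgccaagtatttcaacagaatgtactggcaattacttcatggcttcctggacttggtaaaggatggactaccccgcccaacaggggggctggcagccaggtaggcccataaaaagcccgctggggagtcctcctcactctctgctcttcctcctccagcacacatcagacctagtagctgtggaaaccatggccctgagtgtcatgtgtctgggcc
Serpina3n, chr12:104406458-104406757, plus strand: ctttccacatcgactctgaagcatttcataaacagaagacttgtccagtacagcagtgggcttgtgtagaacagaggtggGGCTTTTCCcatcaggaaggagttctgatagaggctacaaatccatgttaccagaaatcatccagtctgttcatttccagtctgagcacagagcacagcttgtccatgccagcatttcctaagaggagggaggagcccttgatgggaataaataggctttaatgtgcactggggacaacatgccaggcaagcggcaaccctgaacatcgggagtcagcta
Promoters of 8 of the 10 members were read, as 9 sequences with 2 for Cp, those of Hp and Orm1 not being used here. The C/EBP letters were found in 6 of these 9 sequences (1 each of Hpx, Saa1, Saa2, Saa3, Lcn2, and Cp) and in 10.8% of 32851 promoters of the same length. The matches of Saa1 and Saa2, close copies of each other, are the same letters TTGCACAA at -182 and -183. The NF-kB letters were found in 4 of the 9 (Saa3, Serpina3g, Serpina3n, and Cp) and in 5.8% of promoters. The STAT3 letters were found in 1 of the 9 (Serpina3g) and in 8.3% of promoters. Of the genes with the C/EBP letters, Saa3, Lcn2, and Cp were kept, and their differences between the libraries ranged from -0.76 to 0.03. Hpx, Saa1, and Saa2, with at most 15 fragments in either library, had differences of -0.29, -1.24, and 1.53. These matches describe the letters in the window and nothing more.

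Hp was the member with the largest difference between the libraries. The gene lies on the minus strand of chromosome 8 from 109575128 to 109579172 (GRCm38), with 5 exons. Its FPKM was 145.9 in the sham library and 45.2 in the irradiated library, on 5975 and 2114 fragments, so that the level was 3.23-fold higher without radiation. The difference of the deposited values was -1.69, and the log2 ratio of the fragments had an exact 95% binomial interval from -1.76 to -1.62, which like all such intervals here covers counting error only. Ordered by FPKM, Hp was number 316 of all listed genes in the sham library and number 1247 in the irradiated library.

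Genes lower by at least 1 made up 0.373% of the 11253 genes kept, and genes higher by at least 1 made up 0.791%. Of the 10 members, 6 were kept, and 2 of these, Hp and Serpina3g, were lower by at least 1 and 0 were higher. Both were known to be low when the set was chosen, so nothing is read from this count or from the place of Hp among all genes. A difference as low as that of Hp or lower was found for 0.0978% of the genes kept. The 10 genes below Hp in this order comprised 8 with at most 10 fragments in the sham library and 2 others, Gm15421 and Tnn, named after their values were seen. Of the 846 genes with at least as many sham fragments as Hp, 3 were lower by at least 1, namely Hp, Sfrp2 at -1.38, and Igfbp3 at -1.09, the last also named after its value was seen.

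**Figure D1:**
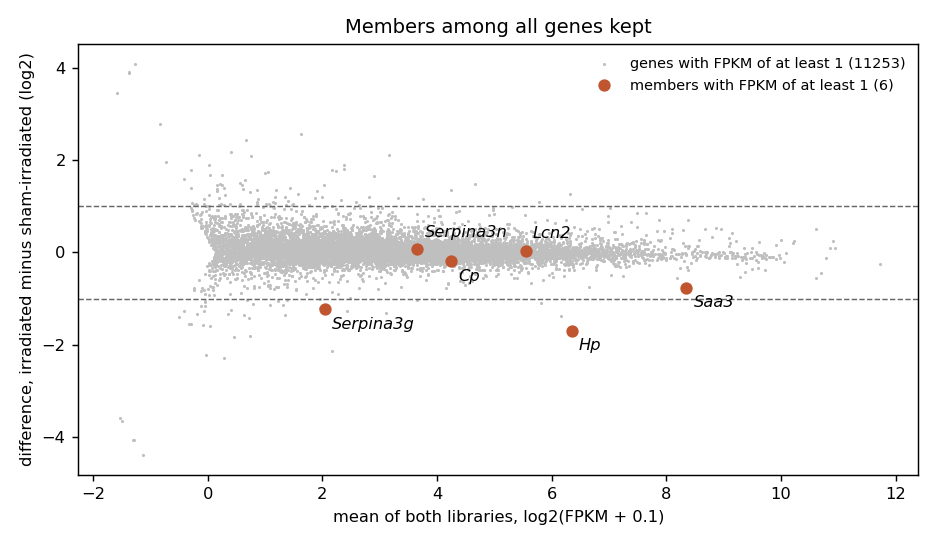
Difference between the libraries (irradiated minus sham-irradiated, log2 of FPKM + 0.1) against the mean of both libraries for the 11253 genes kept (FPKM of 1 or more in either library), with the 6 members among them in orange and dashed lines at a difference of 1 in either direction. Hp (-1.69), Serpina3g (-1.23), and Saa3 (-0.76) lie below the main band of genes, and Cp, Lcn2, and Serpina3n lie within it.

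The serum amyloid A genes form a cluster on chromosome 7. Saa3, on the minus strand from 46711998 to 46715676, was the most abundant member in both libraries. Its FPKM was 424.5 in the sham library, number 101 of all genes, and 250.6 in the irradiated library, number 168. The level was 1.69-fold higher in the sham library, with a difference of -0.76 and a counting interval from -0.81 to -0.71 on 7731 and 5219 fragments. Of the genes kept, 0.613% had a difference as low or lower.

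Saa1 lies at 46740499 to 46742980. Its FPKM was 0.807 in the sham library and 0.284 in the irradiated library, on 15 and 6 fragments. Its difference was -1.24, with counting error spanning -3.17 to -0.07. Saa2, from 46751833 to 46754314, had 0 fragments in the sham library and 4 in the irradiated library, an FPKM of 0.189. The 0 allows an FPKM of up to 0.162 (3 fragments), and the interval of the Saa2 ratio began at -0.79 and had no upper bound, so no difference was detectable at this depth. Added together, which was decided after their values were seen because they share sequence, Saa1 and Saa2 had 15 and 10 fragments, with an interval from -2.09 to 0.47 that includes 0. How fragments that fit both genes were assigned is not known, and its part in the values of Saa1 and Saa2 was not tested.

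**Figure D2:**
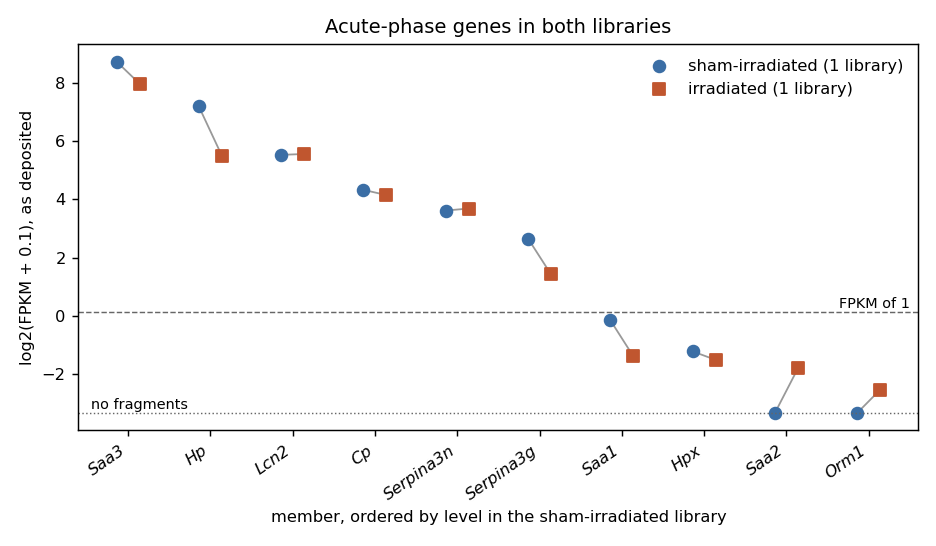
Deposited level of each member, log2(FPKM + 0.1), in the sham library (blue circles) and the irradiated library (orange squares), ordered by the sham-irradiated level, with 1 library per condition and no error bars. Saa3 and Hp are the highest in the sham library, Hp lies near Lcn2 in the irradiated library (5.50 and 5.56), and Saa1, Hpx, Saa2, and Orm1 lie under an FPKM of 1 in both.

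Serpina3g and Serpina3n lie in one cluster of protease inhibitor genes on chromosome 12. Serpina3g is listed from 104214544 to 104241934 on the plus strand. Its level was an FPKM of 6.22 in the sham library and 2.59 in the irradiated library, on 397 and 189 fragments. The difference was -1.23, with a counting interval from -1.52 to -1.01. Serpina3n, from 104406708 to 104414329 on the same strand, had an FPKM of 12.2 and 12.8, on 775 and 931 fragments. Its difference of 0.07 had an interval from -0.07 to 0.21, so the related genes of this cluster did not differ by the same amount.

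The table starts Serpina3g at the start of Serpina3f, whereas GENCODE starts it at 104236245. As listed, Serpina3g overlaps Serpina3f by 6586 bases and Serpina3h by 5693 bases on the same strand, and fragments in these overlaps could have been counted for either gene. Among the other Serpina3 genes, Serpina3i was at 1.70 and 0.859, a difference of -0.91 with an interval from -1.44 to -0.53. Serpina3f, named after its value was seen, was at 0.957 and 0.376, a difference of -1.15 on 67 and 30 fragments. Serpina3h (0.246 and 0.282) and Serpina3m (0.212 and 0.347), like Serpina3c named after their values were seen, were not lower in the irradiated library, and both intervals include 0. Serpina3c was at 0.155 and 0.119, on 8 and 7 fragments, and Serpina3a, Serpina3b, Serpina3j, and Serpina3k had no fragments in either library. Serpina3f, Serpina3g, and Serpina3i, grouped after their values were seen, summed to 578 fragments in the sham library and 285 in the irradiated library.

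Lcn2 and Cp, which handle iron and copper, differed less than Hp and Saa3. Lcn2 lies on chromosome 2 at 32384637 to 32387739. Its FPKM was 46.1 in the sham library and 47.1 in the irradiated library, on 1193 and 1393 fragments. Its difference of 0.03 had an interval from -0.08 to 0.14. Lcn2 stood near the middle of the genes kept, of which 54.8% had a difference as low or lower.

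Cp lies on chromosome 3 at 19957054 to 20009750. Its FPKM was 20.01 and 17.65, on 5105 and 5149 fragments. The difference was -0.18, with an interval from -0.24 to -0.12. Cp overlaps Hps3 on the opposite strand by 13806 bases, and Hps3 was at an FPKM of 1.59 and 1.71. Hpx, on chromosome 7 from 105591611 to 105600116, was close to the limit of detection with an FPKM of 0.332 and 0.254, on 15 and 13 fragments, and its interval from -1.59 to 0.77 includes 0. Orm1, on chromosome 4 from 63344556 to 63348163, had 0 and 2 fragments, both under the 3 that a count of 0 allows. Its relatives Orm2 and Orm3 had 1 and 0 fragments in the sham library and 0 in the irradiated library, and Saa4 had none in either.

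Counting intervals that lay below 0 were found for 17.5% of the genes kept and intervals above 0 for 23.8%. Of the 6 members kept, 4 had an interval below 0 (Hp, Saa3, Serpina3g, and Cp) and 0 had one above. The median difference of these 6 was -0.47, beside 0.02 for all genes kept, and their differences ranged from -1.69 to 0.07. Hp and Serpina3g, known to be low when the set was chosen, enter these counts, this median, and the sums that follow. None of these values is therefore read as a result about the set. The other members kept had differences of -0.76 (Saa3), -0.18 (Cp), 0.03 (Lcn2), and 0.07 (Serpina3n). All 10 members together held 21206 fragments in the sham library and 15020 in the irradiated one, and the log2 ratio per library total had an interval from -0.72 to -0.66. Hp and Saa3 made up 64.6% of the members' fragments in the sham library and 48.8% in the irradiated library. The other 8 members together held 7500 and 7687 fragments, with an interval from -0.20 to -0.11, and Hp and Saa3 together 13706 and 7333, with an interval from -1.14 to -1.05.

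How far each member followed Hp was measured by the ratio of its fragments to those of Hp in the same library, which does not depend on the scaling of the libraries. A log2 value of 0 means that the member changed by the same factor as Hp, and the exact 95% intervals of these odds ratios again cover counting error only. Hp was known to be low when the set was chosen, at -1.69 beside a median of 0.02 for all genes kept. A gene that did not differ between the libraries therefore lies well above 0 on this scale. Nothing is read from the gaps to Hp. Serpina3g came nearest among the members kept, but its low value, like that of Hp, was known when the set was chosen, so nothing is read from this rank. The ratio of Serpina3g to Hp was higher in the irradiated library by 0.43, with an interval from 0.16 to 0.69. For Saa3 the value was 0.93, with an interval from 0.84 to 1.02. In FPKM, Saa3 was at 2.91 times the level of Hp in the sham library and 5.55 times in the irradiated library.

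Cp at 1.51 (interval 1.42 to 1.603), Lcn2 at 1.72 (1.59 to 1.86), and Serpina3n at 1.76 (1.61 to 1.92) lay further from 0, as a gene with little difference between the libraries does. The FPKM of Hp was 3.16 times that of Lcn2 in the sham library and 0.959 times in the irradiated library, so that Hp stood well above Lcn2 in the former and about level with it in the latter. Hp also stood at 7.29 and 2.56 times the FPKM of Cp, and at 12.0 and 3.53 times that of Serpina3n. Such ratios between genes depend on the listed lengths. The listed length of Cp is 8.348 kb, whereas its GENCODE transcript with the longest coding sequence has 4564 bases. In fragments, Cp had 5105 and 5149, beside 5975 and 2114 for Hp. The intervals of Cp, Lcn2, and Serpina3n lay above those of Saa3 and Serpina3g, and that of Saa3 lay above that of Serpina3g. Saa1 had a value of 0.18, but its interval from -1.48 to 1.63 holds 0 as well as the values of Serpina3g, Saa3, and Cp. Hpx had an interval from 0.10 to 2.47, Saa2 one that began at 0.90, and Orm1 one that began at -0.91, with no upper bound for Saa2 and Orm1.

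**Figure D3:**
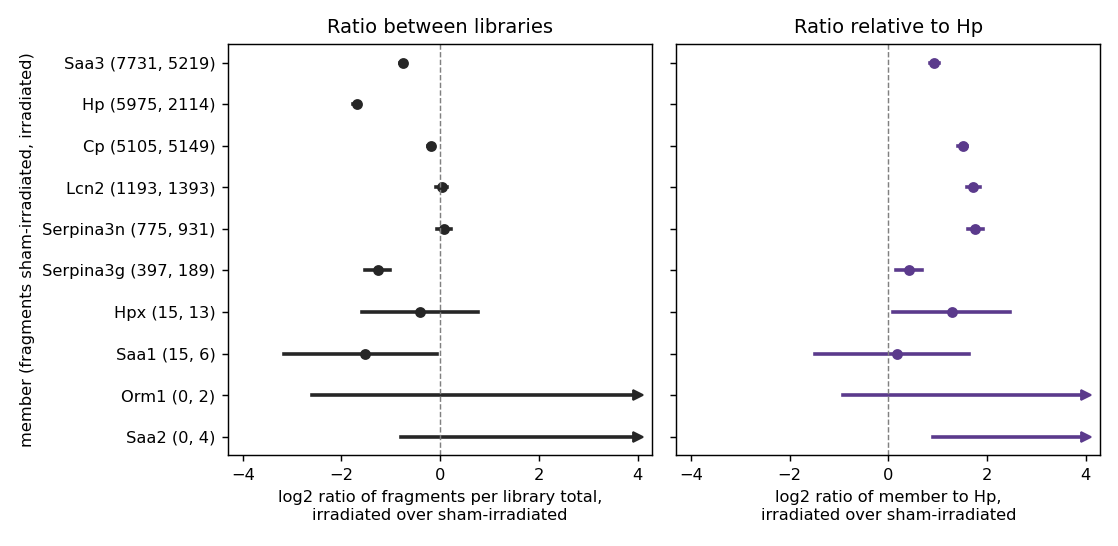
Left, log2 ratio of fragments per library total between the irradiated and the sham library for each member, with the fragments of both libraries in parentheses. Right, the log2 ratio of each member to Hp in the irradiated over the sham library, where 0 means the same change as Hp. Points are ratios, bars are exact 95% intervals of counting error, and arrows are intervals without an upper bound or point, for members with 0 sham fragments. On the right, Serpina3g (0.43) and Saa3 (0.93) lie nearer to 0 than Cp, Lcn2, and Serpina3n (1.51 to 1.76). Hp and Serpina3g were known to be low when the set was chosen.

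Outside the set, likeness to Hp was the gap between differences over the 2 libraries, among 7436 genes that reached an FPKM of 5 in either library, with predicted genes left out. No other gene of these had a difference as low as that of Hp, but Hp was chosen with its low value known, so nothing is read from this. Gm15421, a predicted gene and so left out, was lower at -2.13, on an FPKM of 9.28 and 2.04. The nearest were Sfrp2, a secreted Wnt antagonist, with a gap of 0.31, the small nucleolar RNA genes Snord52 and Snord72 with gaps of 0.38 and 0.42, the member Serpina3g with 0.46, and Slc36a2, an amino acid transporter, with 0.48. Sfrp2 was at an FPKM of 116 and 44.5, close to Hp in both libraries. Snord52 and Snord72 rest on 24 and 15 fragments in the sham library and 11 and 7 in the irradiated library.

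Beside Hp, Saa3, and Lcn2, the nearest expressed genes outside the set had differences between -0.29 and 0.32. Txnl4b, whose listed end lies 1077 bases from Hp, was at an FPKM of 3.53 and 2.87, a difference of -0.29 with an interval from -0.60 to 0.01. Dhodh, on the other side of Hp, was at 2.65 and 2.69. Next to Saa3, Saal1 was at 3.10 and 3.04, and Hps5, beyond Saa2, was at 5.84 and 6.54, while the neighbours of Lcn2, 1110008P14Rik and Ptges2, had differences of 0.32 and 0.16. Serpina3g differed in this, since its neighbour Serpina3i was also lower, at -0.91. Serpina3f, which overlaps Serpina3g but was under an FPKM of 1, was at -1.15. Ifi27, on the other side of Serpina3g at a distance of 774299 bases, had a difference of 0.07. Dicer1, 273413 bases beyond Serpina3n, had one of -0.10. The neighbours of Hpx (Apbb1 at -0.08 and Trim3 at 0) and of Cp (4632415L05Rik at -0.08 and Hps3 at 0.10) had differences near 0. Those of Orm1 were Rgs3 at 0.19, which lies 641537 bases away, and Akna at -0.15.

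Other genes that rise in the acute-phase response were read from a list of 26, of which 14 were kept. Of these 14, 8 were higher and 6 lower in the irradiated library, none by 1 or more, and the median difference was 0.09. Over all genes kept, 53.5% were higher and 44.0% lower, which is the base for the counts of each list. Intervals lay above 0 for 6 and below 0 for 5. Steap4, a metal reductase of adipose tissue, was lowest with an FPKM of 30.0 and 19.6, a difference of -0.61. Ptx3 (pentraxin 3, which binds microbes and complement) was at 749.5 and 519.0, a difference of -0.53, and Slc39a14, a zinc and iron transporter, had a difference of -0.39, both named after their values were seen. C4b, a complement protein, had the highest difference at 0.55 with an FPKM of 5.18 and 7.63. Crp, Apcs, Hamp, and the fibrinogen genes Fga, Fgb, and Fgg had no fragments in either library. Of 7 genes that fall in the acute-phase response, 2 were kept, Trf (transferrin) at 47.4 and 63.0 and Rbp4 at 5.72 and 6.09.

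Receptors and partners of the members were read next. Of 16 genes of haem, haemoglobin, and iron handling in the table, 11 were kept, 10 were higher and 0 lower in the irradiated library, and 9 had an interval above 0, with a median difference of 0.14. Lrp1, the receptor for haem bound to hemopexin, was at an FPKM of 127.9 in both. Cd163, the macrophage receptor for haemoglobin bound to haptoglobin, was under 1 in both at 0.957 and 0.814, and was named after its value was seen. Lrp2, a receptor that also takes up Lcn2, had the largest difference at 0.78, on an FPKM of 0.935 and 1.68, and Fth1, a ferritin chain, was the most abundant at 1795 and 1924. Of 8 serum amyloid A receptors, 6 were kept, 4 higher with intervals above 0 and 2 lower with intervals below 0, with a median difference of 0.22. Fpr1, a formyl peptide receptor, was at 3.58 and 1.58, a difference of -1.13 with an interval from -1.61 to -0.77, and Tlr2 was at 7.06 and 5.40, a difference of -0.38. Cd36, a scavenger receptor, had the highest difference at 0.45, and P2rx7, Scarb1, and Tlr4 had differences of 0.33, 0.25, and 0.19. Tlr2, P2rx7, Scarb1, and Tlr4 were chosen with their values known.

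The signals that drive acute-phase genes had differences in both directions. Of 19 genes of the interleukin-6 family and STAT3, 17 were kept, 5 were higher and 12 lower in the irradiated library, and the median difference was -0.10, with 4 intervals above 0 and 9 below. Among the secreted ligands, Il11 was at an FPKM of 4.19 and 18.4, a difference of 2.11, and the differences of Lif and Clcf1 were 0.67 and 0.79, whereas Il6 itself was at 35.9 and 31.5. Among the receptor and signalling genes, Jak2, a kinase of these receptors, was lowest with 78.2 and 54.1, a difference of -0.53, and Il6st, the shared receptor chain, had the most fragments at a difference of -0.28. Socs3, a STAT3 target that limits the response, was at 21.8 and 18.4, and Stat3 at 55.6 and 53.7. Lif, Clcf1, Il6, Socs3, and Stat3 were also named after their values were seen.

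Of 17 genes of interleukin-1, TNF, and NF-kB signalling, 16 were kept, 8 higher and 7 lower, with a median difference of 0.01, from -0.31 for Il1r1, the interleukin-1 receptor, to 0.16 for Il1a. Of 15 genes of the C/EBP factors, hepatic nuclear factors, and glucocorticoid signalling, 12 were kept, 7 higher and 5 lower, with a median of 0.075, and Hnf4a had no fragments. Cebpd, which drives acute-phase genes, was lowest at 19.3 and 15.9, a difference of -0.28, and Cebpb, with a difference of -0.18, was named after its value was seen. Hsd11b1, which regenerates active glucocorticoid, was highest at 10.46 and 14.02, a difference of 0.42, and Sgk1, a kinase induced by glucocorticoid, had the most fragments, at 28.7 and 33.5.

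**Figure D4:**
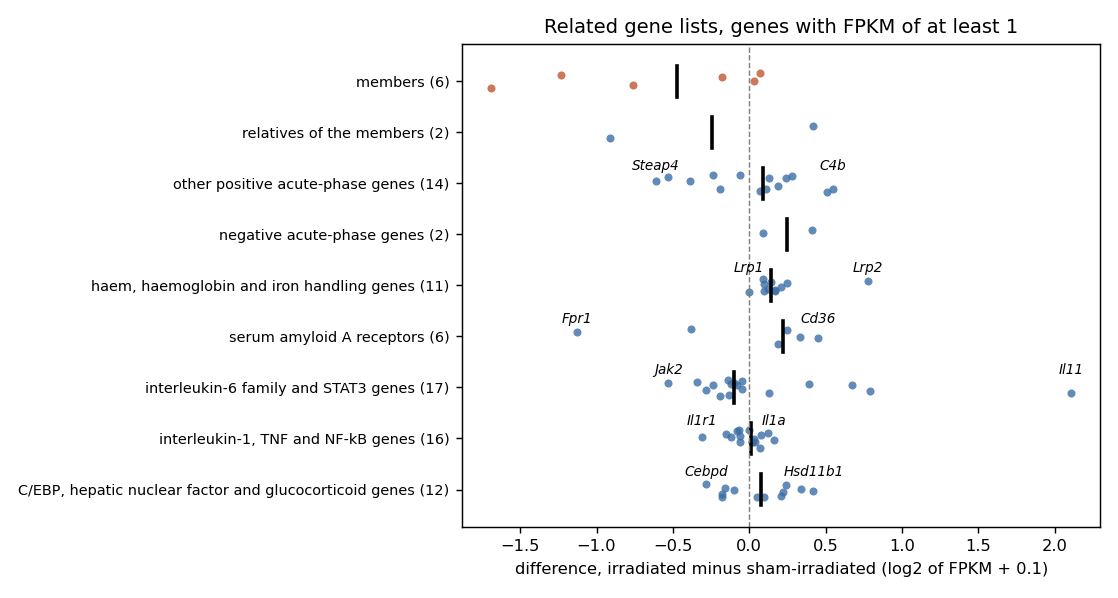
Difference between the libraries (irradiated minus sham-irradiated) for each gene kept (FPKM of 1 or more in either library), in the members (orange) and the related lists (blue), with the number of genes in parentheses, black bars for the medians, and the extreme genes of each list of over 2 genes named. The members span -1.69 to 0.07 around a median of -0.47, and the medians of the signalling lists lie between -0.10 and 0.075. The median of the members includes Hp and Serpina3g, which were known to be low when the set was chosen.

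Markers of other cell types that can make these proteins are given beside the members, and their part in the differences was not tested. None of the 10 hepatocyte markers had an FPKM of 1 or more, with sums of 0.507 and 0.594 over the list and with Ttr, Fgb, Apoc3, and Cps1 at 0 in both, so the liver's defining genes were near 0. Of 10 neutrophil markers, 7 were under 1 in both, the sums were 6.82 and 4.94, and Ly6g, Ngp, and Cxcr2 were at 0 in both. The 3 neutrophil markers kept had a median difference of -0.49, and Camp, a granule peptide, was lowest of them at -0.87 on 35 and 21 fragments. Retnlg, also kept, was higher at 0.36 on 33 and 49 fragments, with an interval that includes 0. Markers of this list under 1 that had intervals below 0 were Mpo (40 and 16 fragments), Elane (6 and 0), and S100a9 (5 and 0), chosen with their values known. Ltf, also under 1 and named after its value was seen, had 0 and 2 fragments. All 12 fibroblast and progenitor markers were kept, 6 higher and 6 lower in the irradiated library, with sums of 3882 and 3179 and a median difference of -0.025. Intervals lay above 0 for 3 of these markers and below 0 for 6. Col1a1, the most abundant of the list, was at 1937 and 1428, a difference of -0.44 with an interval below 0. Pi16 was lowest at -0.55, and Dpp4 was highest at 0.44. The 12 macrophage markers had a median difference of 0.41, with 10 higher and 8 intervals above 0, while their sums were 617 and 658, most of which was Lyz2 at 442.5 and 410.0. The 10 mesothelial markers had a median difference of 1.09, with 9 higher, 6 of them by at least 1, and sums of 35.9 and 52.2. Msln (mesothelin) had the highest difference of these at 2.18, on an FPKM of 0.520 and 2.71, and Wt1, at -0.13, was the one that was lower. Of the 15 mature adipocyte markers, 6 were kept, with sums over the list of 189 and 187 and a median difference of -0.015. Of these 6, 0 had an interval above 0 and 2 had one below. The latter were Dgat2 at -0.37 and Acsl1, named after its value was seen, at -0.19. Over all 15 the median was 0.17, and the lipid droplet genes Plin1 and Plin4, under 1 in both and chosen with their values known, had differences of 0.71 and 0.67 with intervals above 0.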

How the data were processed

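Polyadenylated RNA of 1 sham-irradiated and 1 irradiated culture was sequenced after stranded library preparation. The authors deposited 1 table that holds the log2 of FPKM plus 0.1 to 2 decimals beside each gene's coordinates and length. The submitters' processing notes name mm10. Aligner and counter: not given in the sources used here.

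FPKM was recovered as 2 to the power of the deposited value minus 0.1. Library totals were those that made FPKM times length whole for genes with few fragments (all 2031 and 2179 such genes lay within 0.12 of a whole number), which gave the fragments per gene. Those of abundant genes are approximate because of the rounding. This step was tested on simulated data. Genes were kept if either library reached an FPKM of 1. Intervals are exact 95% Clopper-Pearson intervals for the ratio between libraries and exact conditional intervals for the odds ratio to Hp. No p-value was computed. PCR copies are not independent molecules, so intervals and limits cover counting error only.

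The members and gene lists were chosen with earlier results of these data known. Genes named from each list were those with the largest difference in either direction, the most fragments, or a difference of at least 1. Some genes that this rule names are not reported here. The 5 genes nearest to Hp and the nearest expressed gene on each side of a member were also named. Symbols were matched to the GENCODE M21 annotation (GRCm38) for exons and transcripts and to RefSeq (GRCm38.p6) for promoters. Values were computed with SciPy 1.17.1, pandas 2.3.3, and numpy 2.4.6 under Python 3.11.15, and plots were drawn with matplotlib 3.10.9.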

Additional observations from a re-analysis of the deposited data

How the results depend on the processing

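No paired analysis was possible because there was a single library on each side, which also left no library to omit. Without a filter on FPKM, the count of members higher by at least 1 was 1 in place of 0, which is Saa2 with 0 and 4 fragments, and the count lower by at least 1 was 3 in place of 2, through Saa1. With a threshold of 0.5 the count of lower members was also 3, through Saa3. These lower counts include Hp and Serpina3g, which were known to be low when the set was chosen. No share over all genes is given for these settings, so nothing is read from the counts. The difference of Hp was -1.67 with log2(FPKM + 1), -1.71 when centred on the median difference, -1.71 when scaled without the 100 most abundant genes, and -1.69 from the recovered fragments. The median of the members was -0.235 without a filter, and the mean in its place was -0.627, both with Hp and Serpina3g included. Differences of members with few fragments depend on the pseudocount, and that of Saa1 was -0.493 with log2(FPKM + 1). No value of the members changed sign under the alternatives run. Among the related lists, mean and median differed in sign for the serum amyloid A receptors (-0.048 and 0.22), the interleukin-6 family (0.108 and -0.10), and the interleukin-1 list (-0.019 and 0.01), and the median of the C/EBP list was -0.025 for genes with an FPKM of 5 or more. The median of the mature adipocyte markers was -0.015 for genes kept and 0.17 without a filter, and that of the serum amyloid A receptors was 0.22 and -0.095. Depth limits Hpx, Saa1, Saa2, and Orm1, each with at most 15 fragments in either library.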

Other observations

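The remaining cell type lists add these values, which enter no comparison above. Of the 8 endothelial markers, 8 were kept and 7 were higher after irradiation, with a median difference of 0.205 and with Esam, a junction protein, at 0.49. Of the 8 epididymal epithelium markers, 0 reached an FPKM of 1 in either library and 6 had no fragments, and their summed FPKM was 0.855 without and 0.617 with irradiation. None of the 8 lymphocyte markers reached 1, and their summed FPKM was 2.10 and 1.02.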
